A study of Homo sapiens with 24 samples.

Results

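A set of 10 regulators of mTORC1, the growth-controlling protein kinase complex of the lysosome, was followed in pancreatic cancer cells given compounds that act on energy metabolism. The members were chosen by symbol: the Sestrins SESN1, SESN2 and SESN3, the inhibitors DDIT4 and DEPTOR, the Rag GTPases RRAGC and RRAGD, and folliculin FLCN with its partners FNIP1 and FNIP2. All 10 were found among the 25168 genes of each of 2 count tables. The study measured polyadenylated RNA in 24 bulk libraries from 2 established human lines of pancreatic ductal carcinoma, BXPC3 and PANC1. The 4 groups of each line, 3 libraries apiece, were sampled after 24 h with vehicle, with 5 uM of SR4, with 300 uM of lonidamine, or with the pair together. SR4 is known under this code name as an uncoupler of mitochondria, and lonidamine is known to block pyruvate entry into mitochondria, lactate export and respiratory complex II. The doses inside the combination are not listed separately, so comparisons with the single compounds assume the same doses. All groups grew in low-glucose medium with serum. Each condition rests on 1 line at a time, and the labels do not say that the 3 libraries came from separate cultures, so p-values measure the spread between these libraries, which may be technical.

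mTORC1 is switched on at the lysosome when Rag GTPases, loaded in response to amino acids, recruit it there and when growth factor signals release RHEB. Sestrins bind the GATOR2 complex and thereby hold the Rag switch off, SESN2 as a leucine sensor, while DDIT4 acts through the TSC complex on RHEB and DEPTOR binds the kinase itself. FLCN with FNIP1 or FNIP2 is the GTPase-activating protein for RagC and RagD and is needed for mTORC1 to hold the transcription factors TFEB and TFE3 in the cytoplasm. SESN2 and DDIT4 are known targets of the stress factor ATF4, and RRAGC, RRAGD, FLCN, FNIP1 and FNIP2 are known targets of TFEB and TFE3.

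Of the 10 genes, 5 were higher than vehicle in all 6 comparisons of a treatment with vehicle: SESN2, DDIT4, RRAGC, FLCN and FNIP1. Among all 11538 genes tested in both lines, 12.3% had that pattern. The hexamer CACGTG, the E-box core that TFEB and TFE3 bind, is in capitals below. The stretches from 250 to 51 bases before the transcription starts of these 5 genes are shown because each was higher than vehicle throughout. They come from RefSeq on GRCh38.p14, 5′ to 3′ on the gene's strand: SESN2 chr1:28259268-28259467 (+ strand), DDIT4 chr10:72273674-72273873 (+ strand), RRAGC chr1:38859823-38860022 (- strand), FLCN chr17:17237219-17237418 (- strand) and FNIP1 chr5:131797068-131797267 (- strand).
SESN2: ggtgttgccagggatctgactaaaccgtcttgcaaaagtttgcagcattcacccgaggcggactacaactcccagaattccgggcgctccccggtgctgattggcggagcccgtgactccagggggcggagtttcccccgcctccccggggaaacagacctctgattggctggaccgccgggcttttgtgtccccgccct
DDIT4: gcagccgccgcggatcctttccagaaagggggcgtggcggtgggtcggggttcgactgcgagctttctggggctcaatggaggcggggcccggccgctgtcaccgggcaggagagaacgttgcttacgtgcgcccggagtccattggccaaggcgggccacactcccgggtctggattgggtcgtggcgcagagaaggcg
RRAGC: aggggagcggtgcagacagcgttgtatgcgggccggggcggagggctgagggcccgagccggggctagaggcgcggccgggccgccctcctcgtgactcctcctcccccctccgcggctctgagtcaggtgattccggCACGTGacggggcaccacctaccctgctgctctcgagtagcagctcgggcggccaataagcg
FLCN: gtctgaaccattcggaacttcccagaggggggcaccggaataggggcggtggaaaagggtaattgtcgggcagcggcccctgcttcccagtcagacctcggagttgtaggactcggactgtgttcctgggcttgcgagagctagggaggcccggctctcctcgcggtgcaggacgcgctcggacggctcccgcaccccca
FNIP1: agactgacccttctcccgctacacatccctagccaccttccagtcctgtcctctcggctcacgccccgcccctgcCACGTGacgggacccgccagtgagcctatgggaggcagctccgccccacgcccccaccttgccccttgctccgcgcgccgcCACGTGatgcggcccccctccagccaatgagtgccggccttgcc

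DEPTOR was left out of the window search. RefSeq windows were found for 8 of the other members, 11 windows in all, and RRAGD had none. In the 250 bases before the start, on either strand, CACGTG occurred once in RRAGC, from 112 to 107 bases upstream, and at 2 places in FNIP1, from 175 to 170 and from 94 to 89 bases upstream. The hexamer is its own reverse complement and is held by 6.34% of 35116 such windows. The letters TGATGNAA, the core of the element bound by ATF4 with C/EBP factors, and TGTTTAC, a FOXO site core, were in none of these 11 windows and are held by 3.14% and 2.98% of all windows. A match here is a description of the letters only.

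BXPC3 libraries held 9.14 to 11.5 M counted reads each, and PANC1 libraries 8.87 to 11.8 M. All 7 duct epithelium markers were detected in both lines, while the endocrine list summed to at most 0.175 and the acinar list to at most 1.70 CPM (counts per M counted reads, after TMM scaling) in any library. The immune list of 8 genes summed to between 21.3 and 220 CPM and rested on CD68, and the fibroblast list of 8 genes to between 13.5 and 91.7 CPM with COL1A1 leading. The endothelium list was at 9.13 to 10.9 CPM with vehicle in BXPC3, mostly CDH5, and at most 1.73 CPM in every other group. The mesenchymal list of 4 genes (VIM, ZEB1, CDH2 and FN1) set the lines apart. With vehicle it summed to a mean of 353 CPM in BXPC3, mostly FN1, and to 4420 CPM in PANC1, mostly VIM. The summed duct markers moved with treatment, from a mean of 6290 CPM with vehicle to 3610 with the combination in BXPC3 and from 3890 to 896 in PANC1. The part of these shifts in the results on the regulators was not tested. In bulk libraries, fewer cells of a kind and less RNA per cell cannot be told apart.

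With SR4 in BXPC3, 6 of the 9 tested members rose and 2 fell, where 33.4% of all tested genes rose, 33.9% fell and 67.2% were called either way. With lonidamine 6 rose and 1 fell (34.8% and 32.7% of all genes, 67.5% called), and with the combination 6 rose and 1 fell (39.7% and 39.5%, 79.2% called). In PANC1, 6 of 10 members rose and 3 fell with SR4 (35.0% and 36.7% of all genes, 71.7% called). There 7 rose and 2 fell with lonidamine (35.0% and 34.2%, 69.2% called), and 6 rose and 3 fell with the combination (40.1% and 40.9%, 81.1% called). A call in either direction says little about the members, since the response touched most genes. The same holds for groups whose libraries do not overlap, given below for single members. Libraries with SR4, lonidamine and the combination did not overlap vehicle for 69.3%, 69.0% and 79.8% of all tested genes in BXPC3. In PANC1 the shares were 73.2%, 71.9% and 82.2%. Between treated groups they ran from 53.9% to 75.7%. Whether members were called more often than other genes was not tested, and the members were chosen with earlier results of these data known. The median log2 change over the tested members in BXPC3 was 1.0 with SR4, 0.66 with lonidamine and 1.40 with the combination, and in PANC1 0.63, 0.47 and 0.72 in that order, against medians over all genes between -0.0199 and 0.0257. These comparisons share their vehicle libraries within a line. DEPTOR in BXPC3 had too few counts for the test.

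**Figure D1:**
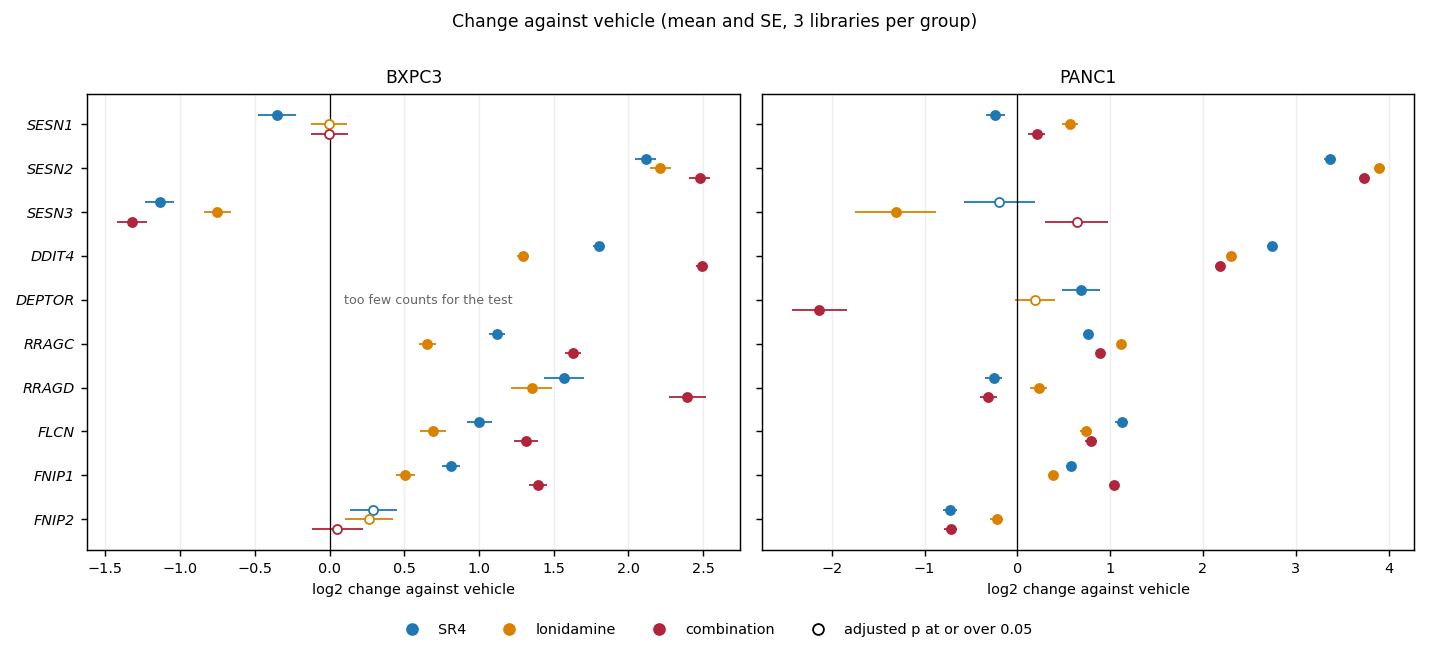
Log2 change against vehicle for each of the 10 genes in BXPC3 (left) and PANC1 (right), on axes of different range, with points for the estimate, bars for its SE and 3 libraries per group. Filled points have an adjusted p under 0.05. SESN2 and DDIT4 lie farthest to the right in PANC1, and RRAGD lies to the right in BXPC3 but close to 0 in PANC1.

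Set side by side per length, as TPM, the share of counts per gene length, DDIT4 was the most abundant of the 10 in vehicle-treated cells, at 220 ± 9.74 TPM in BXPC3 and 109 ± 10.1 in PANC1 (SD, n = 3). In BXPC3 it was followed by RRAGC at 31.1 ± 0.381, FNIP1 at 26.1 ± 1.98, SESN2 at 24.4 ± 0.874 and SESN3 at 17.3 ± 1.26 TPM (SD, n = 3), of which FNIP1 and SESN2 did not differ beyond their spread. SESN1 (9.74 ± 0.724) and FLCN (9.41 ± 1.40) did not differ beyond theirs, and RRAGD, FNIP2 and DEPTOR closed the order at 4.26 ± 0.874, 2.61 ± 0.339 and 1.62 ± 0.244 TPM. In PANC1, FNIP1 (54.4 ± 1.72) and RRAGC (52.6 ± 2.98) came next with overlapping spreads, then RRAGD at 19.9 ± 1.27, FNIP2 at 19.8 ± 0.856, SESN2 at 16.8 ± 1.89, FLCN at 14.8 ± 1.23 and SESN1 at 14.2 ± 1.0 TPM. Among these, RRAGD did not differ from FNIP2 or SESN2 beyond their spread, nor did SESN2, FLCN and SESN1 from each other. DEPTOR at 7.53 ± 1.72 and SESN3 at 0.710 ± 0.198 TPM were lowest there. So SESN3 was mid-ranked in one line and last in the other.

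**Figure D2:**
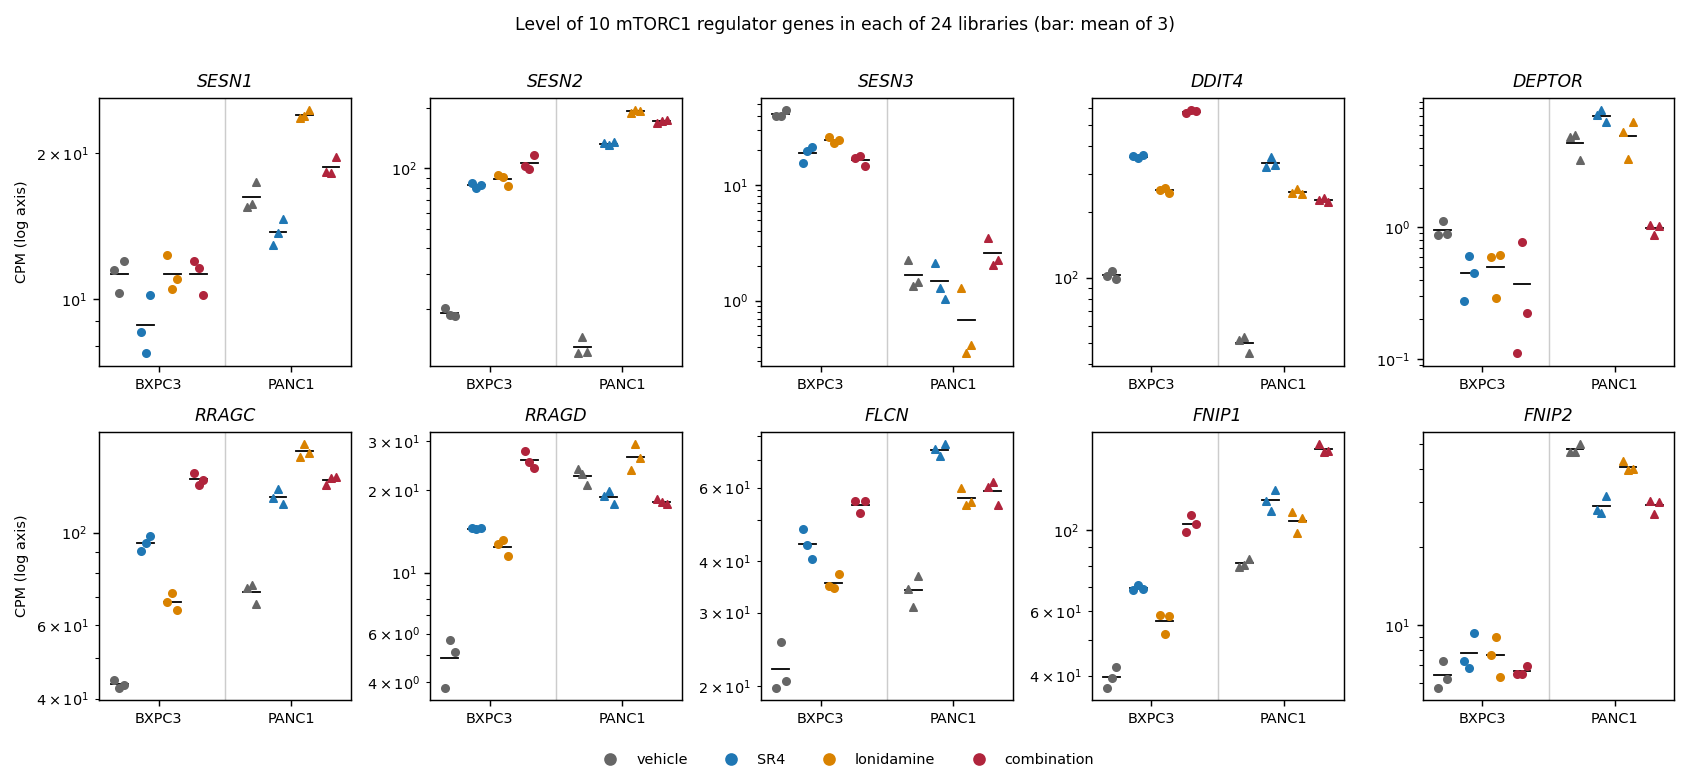
CPM of each of the 10 genes in every library on a log axis, with circles for BXPC3, triangles for PANC1, colours for treatment and a bar at the mean of 3 libraries. In both lines the vehicle points of SESN2 and DDIT4 lie below all treated points.

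SESN2, the Sestrin that senses leucine, rose strongly with every treatment in both lines, by 4.33- to 5.57-fold in BXPC3 and by 10.3- to 14.9-fold in PANC1. Its gene lies at chr1:28259527-28282491, + strand in the GRCh38 coordinates of the deposited tables. In BXPC3 it stood at 20.1, 18.7 and 18.4 with vehicle, 84.9, 79.8 and 83 with SR4, 92.4, 90.5 and 82.2 with lonidamine and 103, 99.7 and 116 with the combination, in CPM. In PANC1 it stood at 12, 14.5 and 12.2 with vehicle, 134, 130 and 135 with SR4, 189, 195 and 193 with lonidamine and 168, 173 and 175 with the combination, in CPM. No treated library overlapped a vehicle library in either line, and in PANC1 the 4 groups did not overlap at all, with lonidamine highest. Most genes showed such separation from vehicle, as given above. The log2 changes were 2.11 ± 0.071 with SR4, 2.21 ± 0.0708 with lonidamine and 2.48 ± 0.07 with the combination in BXPC3 (SE), with adjusted p of 1.77e-19, 4.5e-20 and 1.34e-21 by edgeR's quasi-likelihood F-test, Benjamini-Hochberg adjusted. In PANC1 they were 3.37 ± 0.0629 with SR4, 3.90 ± 0.0599 with lonidamine and 3.74 ± 0.0607 with the combination (SE), with adjusted p of 5.89e-26, 2.88e-27 and 1.48e-27 by the same test. PANC1 held less SESN2 than BXPC3 with vehicle and had the higher CPM with each treatment, levels that were scaled in separate tables.

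SESN3 (chr11:95165513-95232541, - strand), a Sestrin known as a target of FOXO factors, went the other way in BXPC3. There it stood at 40, 39.7 and 44.6 with vehicle, 15.4, 19.8 and 21.3 with SR4, 26.1, 23.3 and 24.5 with lonidamine and 17.2, 17.9 and 14.5 with the combination, in CPM, so that every treated library was below every vehicle library. The log2 changes were -1.14 ± 0.0944 with SR4, -0.75 ± 0.0911 with lonidamine and -1.32 ± 0.0997 with the combination (SE), with adjusted p of 4.31e-11, 5.18e-08 and 2.9e-12 by edgeR's quasi-likelihood test. In PANC1 the gene was barely detected, with counts of 21, 12 and 13 with vehicle, 20, 12 and 10 with SR4, 14, 4 and 5 with lonidamine and 40, 21 and 24 with the combination. The lonidamine and vehicle counts overlap. After scaling to CPM, lonidamine lay at 0.349 to 1.29, just under vehicle at 1.35 to 2.23 and under the combination at 2.05 to 3.51, while the other pairs of groups overlapped. The log2 change of -1.31 ± 0.438 (SE) with lonidamine passed the test at an adjusted p of 0.00972 by edgeR, but not without vehicle replicate 1 (-1.05, adjusted p = 0.0767), lonidamine replicate 2 (-1.01, 0.0588) or lonidamine replicate 3 (-1.04, 0.0549). Without lonidamine replicate 1 it was -2.10. The values with SR4 (-0.19 ± 0.387, adjusted p = 0.665) and with the combination (0.64 ± 0.336, adjusted p = 0.0828) did not pass in PANC1, the latter passing without vehicle replicate 1 (0.91, adjusted p = 0.0431).

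SESN1 (chr6:108986437-109094819, - strand), another stress-induced Sestrin, moved little. In BXPC3 it stood at 11.5, 10.3 and 12 with vehicle, 8.56, 7.73 and 10.2 with SR4, 12.3, 10.5 and 11 with lonidamine and 12, 11.6 and 10.2 with the combination, in CPM, and only the SR4 libraries lay below all vehicle libraries. The log2 change with SR4 was -0.35 ± 0.126 (SE; adjusted p = 0.0164 by edgeR), a call lost without vehicle replicate 3 (-0.31), SR4 replicate 1 (-0.33) or SR4 replicate 2 (-0.26), while lonidamine (-0.0022 ± 0.122) and the combination (-0.0017 ± 0.124) did not pass. In PANC1 it stood at 15.5, 15.7 and 17.4 with vehicle, 12.9, 13.7 and 14.6 with SR4, 23.6, 23.8 and 24.5 with lonidamine and 18.3, 18.2 and 19.6 with the combination, in CPM. The 4 groups did not overlap there and lonidamine was highest, with a log2 change of 0.56 ± 0.0877 (SE; adjusted p = 2.27e-06 by edgeR). The smaller values in PANC1 were less steady. With SR4 the change of -0.24 ± 0.0991 (adjusted p = 0.0337) was lost without vehicle replicate 3 (-0.18), SR4 replicate 1 (-0.19) or SR4 replicate 2 (-0.24), and with the combination the change of 0.21 ± 0.092 (adjusted p = 0.0407) was lost without vehicle replicate 1 (0.18), vehicle replicate 2 (0.19) or combination replicate 3 (0.18). The DESeq2 test called neither of these, nor the change with SR4 in BXPC3.

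The make-up of Sestrin transcripts shifted toward SESN2, described here without a test. Measured per length, SESN2 made up 47.5% ± 2.32 of the summed Sestrin TPM with vehicle in BXPC3 and 87.2% ± 1.48, 85.0% ± 0.956 and 89.0% ± 1.59 with SR4, lonidamine and the combination (SD, n = 3 each). In PANC1 its share went from 52.8% ± 3.51 to 93.2% ± 0.238, 92.2% ± 0.181 and 92.7% ± 0.254 (SD, n = 3 each). The counterpart with vehicle was SESN3 in BXPC3, at 33.6% ± 1.77, and SESN1 in PANC1, at 44.9% ± 3.29.

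**Figure D3:**
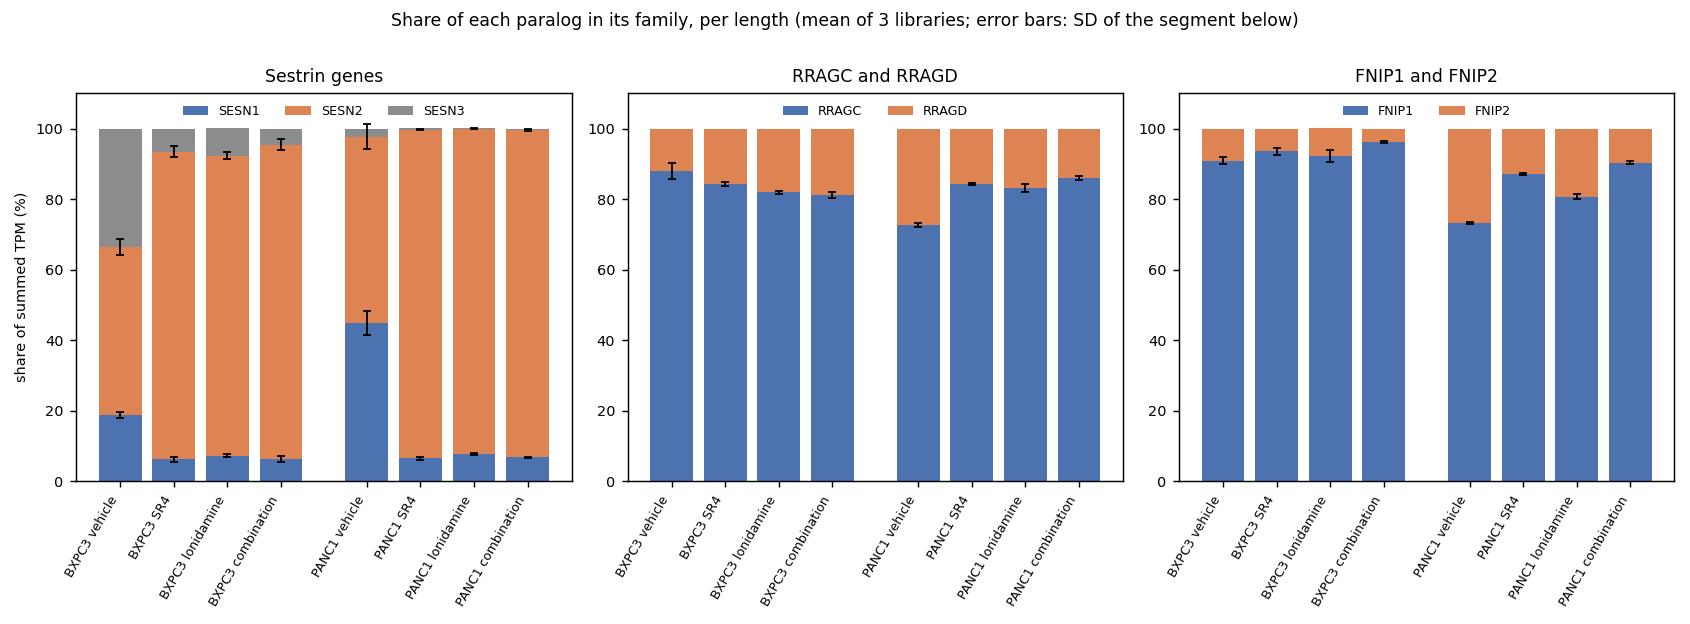
Share of each paralog in the summed TPM of its family for the 8 groups, as stacked bars with the mean of 3 libraries and error bars for the SD of the segment below. SESN2 fills 85.0% to 93.2% of the Sestrin bar in the treated groups, and the RRAGD segment widens from 12% to 18.8% in BXPC3 and narrows from 27.4% to 14.1% in PANC1 between vehicle and the combination.

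DDIT4 (chr10:72273920-72276036, + strand), also known as REDD1, an inhibitor of mTORC1 made under stress and hypoxia, rose with every treatment. In BXPC3 it stood at 102, 107 and 98.5 with vehicle, 360, 352 and 364 with SR4, 252, 258 and 245 with lonidamine and 566, 586 and 580 with the combination, in CPM. The 4 groups did not overlap, with the combination highest. In PANC1 it stood at 51.7, 53.7 and 44.9 with vehicle, 321, 358 and 327 with SR4, 244, 254 and 242 with lonidamine and 228, 232 and 222 with the combination, in CPM, where all groups were apart as well but the combination was the lowest of the 3 treatments. The log2 changes were 1.81 ± 0.0392 with SR4, 1.30 ± 0.0397 with lonidamine and 2.49 ± 0.0392 with the combination in BXPC3 and 2.74 ± 0.0543 with SR4, 2.30 ± 0.0547 with lonidamine and 2.18 ± 0.0551 with the combination in PANC1 (SE). The adjusted p was 1.98e-23, 1.71e-20 and 6e-27 in BXPC3 and 2.38e-25, 1.24e-23 and 1.62e-23 in PANC1 by edgeR's quasi-likelihood test.

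DEPTOR (chr8:119873717-120050913, + strand), a direct inhibitor of the kinase in both mTOR complexes, was scarce. In BXPC3 its counts were 10, 12 and 10 with vehicle, 3, 6 and 5 with SR4, 6, 3 and 6 with lonidamine and 1, 7 and 2 with the combination. Their sums gave ratios to vehicle of 0.470 (95% interval 0.232 to 0.906) with SR4, 0.509 (0.256 to 0.968) with lonidamine and 0.373 (0.163 to 0.777) with the combination, intervals that cover counting error only. Without the low-count filter edgeR gave adjusted p of 0.0788, 0.140 and 0.0353. In PANC1 it stood at 4.88, 5.04 and 3.22 with vehicle, 7.12, 7.77 and 6.3 with SR4, 5.27, 3.32 and 6.33 with lonidamine and 1.05, 0.88 and 1.03 with the combination, in CPM, on counts of 9 to 77 per library. SR4 libraries lay above all vehicle libraries, combination libraries below every other library, and lonidamine overlapped vehicle. On the log2 scale this was 0.69 ± 0.209 with SR4, 0.19 ± 0.216 with lonidamine and -2.14 ± 0.3 with the combination (SE), with adjusted p of 0.00485, 0.456 and 2.75e-07 by edgeR's quasi-likelihood test. The combination therefore held 4.39-fold less DEPTOR than vehicle, while SR4 alone held 1.61-fold more.

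RRAGC (chr1:38838198-38874494, - strand) and RRAGD (chr6:89364636-89412270, - strand) encode RagC and RagD, the alternative partners of RagA or RagB in the lysosomal switch. RRAGC rose with every treatment in both lines. In BXPC3 it stood at 44.3, 42.5 and 43.1 with vehicle, 90.4, 94.5 and 98.2 with SR4, 68, 71.5 and 65.2 with lonidamine and 139, 130 and 134 with the combination, in CPM, and in PANC1 at 73.8, 75 and 67.3 with vehicle, 121, 127 and 117 with SR4, 152, 163 and 155 with lonidamine and 130, 135 and 136 with the combination. No treated library overlapped vehicle, and the combination was highest in BXPC3 while lonidamine was highest in PANC1. These were log2 changes of 1.12 ± 0.0539 with SR4, 0.66 ± 0.0563 with lonidamine and 1.63 ± 0.0528 with the combination in BXPC3 and 0.76 ± 0.0503 with SR4, 1.12 ± 0.0484 with lonidamine and 0.89 ± 0.0493 with the combination in PANC1 (SE). The adjusted p was at most 8.02e-11 in BXPC3 and 1.44e-13 in PANC1 by edgeR's quasi-likelihood test. The stretch printed above for RRAGC lies inside the interval the deposited tables list for the gene. That interval overlaps that of GJA9-MYCBP on the same strand, a gene with at most 324 counts per library, and reads shared by such genes cannot be told apart here.

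RRAGD behaved differently in the lines. In BXPC3 it stood at 3.82, 5.69 and 5.15 with vehicle, 14.5, 14.4 and 14.5 with SR4, 12.7, 13.1 and 11.5 with lonidamine and 27.6, 25.3 and 24 with the combination, in CPM, with every treated library above every vehicle library and the combination highest. Its log2 changes there were 1.57 ± 0.131 with SR4, 1.35 ± 0.136 with lonidamine and 2.39 ± 0.122 with the combination (SE; adjusted p 4.97e-11, 1.64e-09 and 6.09e-16 by edgeR). In PANC1 it stood at 23.8, 22.9 and 20.8 with vehicle, 19, 19.8 and 17.7 with SR4, 23.6, 29.3 and 26.1 with lonidamine and 18.5, 18 and 17.8 with the combination, in CPM. SR4 and combination libraries lay below all vehicle libraries, and lonidamine overlapped vehicle. The log2 changes in PANC1 were -0.26 ± 0.0958 with SR4, 0.23 ± 0.0882 with lonidamine and -0.31 ± 0.0945 with the combination (SE; adjusted p 0.0184, 0.0242 and 0.00361 by edgeR). The DESeq2 test called neither single compound for RRAGD in PANC1. The SR4 call was lost without vehicle replicate 1 (-0.21) or SR4 replicate 3 (-0.21), and the lonidamine call without vehicle replicate 3 (0.17) or lonidamine replicate 2 (0.15). Per length, RRAGD made up 12% ± 2.31 of the RRAGC and RRAGD sum with vehicle in BXPC3 and 18.8% ± 0.794 with the combination, and 27.4% ± 0.582 and 14.1% ± 0.537 in PANC1 (SD, n = 3 each).

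FLCN (chr17:17202649-17237188, - strand), the tumour suppressor folliculin, rose with every treatment. In BXPC3 it stood at 19.8, 25.5 and 20.5 with vehicle, 47.8, 43.6 and 40.3 with SR4, 34.7, 34.4 and 37.2 with lonidamine and 55.6, 52 and 55.8 with the combination, in CPM, and in PANC1 at 34.2, 30.9 and 36.7 with vehicle, 74.1, 71.4 and 76.3 with SR4, 60, 54.6 and 55.4 with lonidamine and 60.2, 62 and 54.4 with the combination. All treated libraries were above all vehicle libraries in both lines, with the combination highest in BXPC3 and SR4 highest in PANC1. These were log2 changes of 1.0 ± 0.0838 with SR4, 0.69 ± 0.0873 with lonidamine and 1.31 ± 0.0829 with the combination in BXPC3 and 1.12 ± 0.0676 with SR4, 0.74 ± 0.0685 with lonidamine and 0.79 ± 0.0687 with the combination in PANC1 (SE), each with an adjusted p of at most 9.69e-08 by edgeR's quasi-likelihood test. The listed interval of FLCN overlaps MPRIP on the opposite strand, with up to 6135 counts per library, and PLD6 on the same strand, with up to 166. For the counting, a strand setting was not given in the sources used here.

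FNIP1 (chr5:131641714-131797063, - strand) and FNIP2 (chr4:158769138-158908049, + strand), which pair with FLCN one at a time, did not move alike. FNIP1 in BXPC3 stood at 37.1, 39.4 and 42.3 with vehicle, 68.7, 71 and 69.1 with SR4, 58.8, 52 and 58.2 with lonidamine and 98.9, 110 and 104 with the combination, in CPM, and in PANC1 at 79.5, 80.5 and 83.5 with vehicle, 120, 113 and 129 with SR4, 112, 98 and 108 with lonidamine and 172, 164 and 165 with the combination. The combination was highest in both lines, and vehicle was below all treated libraries. The log2 changes were 0.81 ± 0.0624 with SR4, 0.51 ± 0.0646 with lonidamine and 1.40 ± 0.0606 with the combination in BXPC3 and 0.57 ± 0.0539 with SR4, 0.38 ± 0.0536 with lonidamine and 1.04 ± 0.0517 with the combination in PANC1 (SE), with an adjusted p of at most 4.01e-07 by edgeR. The interval of FNIP1 overlaps that listed for RAPGEF6 on the same strand over 155270 bases, a gene with up to 371 counts in BXPC3 and 1385 in PANC1. FNIP2 in PANC1 stood at 46.7, 46.7 and 50 with vehicle, 27.8, 27.2 and 31.5 with SR4, 42.9, 39.8 and 40.2 with lonidamine and 30.2, 26.9 and 29.9 with the combination, in CPM, with every treated library below vehicle. Its log2 changes there were -0.73 ± 0.0728 with SR4, -0.22 ± 0.067 with lonidamine and -0.72 ± 0.0712 with the combination (SE), with adjusted p of 7.83e-10, 0.00437 and 3.87e-10 by edgeR. In BXPC3, FNIP2 lay between 5.74 and 9.34 CPM in all 12 libraries with all groups overlapping vehicle, and no change passed the test (0.29 ± 0.158 with SR4, 0.27 ± 0.16 with lonidamine and 0.053 ± 0.168 with the combination, SE), although the lonidamine value passed without lonidamine replicate 3 (0.39, adjusted p = 0.0428). Per length, FNIP2 went from 26.7% ± 0.295 of the summed FNIP TPM with vehicle to 9.68% ± 0.450 with the combination in PANC1 (SD, n = 3 each).

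The combination was then set against each compound alone. In BXPC3 it was above SR4 for 7 and below it for 0 of the 9 tested members (30.3% and 30.5% of all genes, 60.8% called), and above lonidamine for 6 and below it for 1 (30.1% and 30.7%, 60.8% called). DDIT4 was higher than with SR4 by 0.69 ± 0.0356 log2 and higher than with lonidamine by 1.20 ± 0.0364 (SE), and RRAGD by 0.82 ± 0.101 and 1.04 ± 0.105. In PANC1 the combination was above SR4 for 5 and below it for 3 of 10 members (33.2% and 33.4% of all genes, 66.5% called), and above lonidamine for 2 and below it for 7 (37.1% and 37.5%, 74.6% called). FNIP1 was the 1 member called above both compounds in both lines, by 0.47 ± 0.0489 over SR4 and 0.66 ± 0.0487 over lonidamine in PANC1 (log2, SE) and by 0.59 ± 0.0566 and 0.89 ± 0.0586 in BXPC3. DEPTOR in PANC1 was below both, at -2.82 ± 0.272 against SR4 and -2.32 ± 0.283 against lonidamine (log2, SE), and so was DDIT4, at -0.56 ± 0.045 and -0.12 ± 0.0453. The smaller difference of DDIT4 was lost without lonidamine replicate 2 (-0.095) or combination replicate 3 (-0.097) and with the DESeq2 test. The call for SESN1 above SR4 in BXPC3 (0.35) was lost without SR4 replicate 1 (0.33) or 2 (0.26) or combination replicate 1 (0.29) or 2 (0.32). SESN3 below SR4 in BXPC3 (-0.18, not called) passed without SR4 replicate 1 (-0.31). The calls in PANC1 for SESN3 above SR4 (0.83) and RRAGC above SR4 (0.14) were also lost without 1 library: SESN3 without SR4 replicate 2 (0.75) or 3 (0.63) or combination replicate 1 (0.55), and RRAGC without SR4 replicate 3 (0.11). The DESeq2 test did not call SESN3 above SR4 in PANC1 or SESN1 above SR4 in BXPC3. The SESN1 call was also lost with scaling by library totals.

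Whether the combination equalled the sum of the single changes on the log2 scale was tested as an interaction. It was below the sum for 4 and above it for 1 of 9 members in BXPC3, where 25.5% of all genes were below, 23.7% above and 49.2% called. It was below the sum for 5 and above it for 2 of 10 members in PANC1, where 30.0% were below, 30.8% above and 60.9% called. SESN2 showed this most, with single changes that summed to 4.33 and a combination change of 2.48 in BXPC3, and a sum of 7.27 and a combination change of 3.74 in PANC1. The interaction was -1.85 ± 0.0921 and -3.53 ± 0.0761 (SE; adjusted p 3.64e-15 and 9.13e-24 by edgeR's quasi-likelihood test). For DDIT4 it was -0.61 ± 0.0532 in BXPC3 and -2.86 ± 0.0712 in PANC1, and for FLCN -0.38 ± 0.115 and -1.07 ± 0.0914 (SE). RRAGC departed from the sum in PANC1, at -0.99 ± 0.0669, as did DEPTOR at -3.01 ± 0.355, its single changes summing to 0.87 and the combination standing at -2.14. For FNIP1 no departure from the sum passed the test in either line (0.079 ± 0.0861 and 0.085 ± 0.0727, adjusted p 0.472 and 0.321). SESN3 was above the sum in both lines (0.57 ± 0.146 and 2.14 ± 0.556), on low counts in PANC1. The interaction of RRAGD in BXPC3 (-0.53) was lost without vehicle replicate 1 (-0.38), and that of FNIP2 in PANC1 (0.23, adjusted p = 0.0493) was lost when any 1 of vehicle 1, 2 or 3, lonidamine 2 or 3, SR4 1 or 2, or combination 1 or 3 was left out, with values from 0.20 to 0.25. The DESeq2 test called neither of these interactions. That of FNIP2 was also lost with scaling by library totals and with no low-count filter. Further interactions that did not pass with all libraries did so without 1: SESN1 in BXPC3 without the unnumbered SR4 library (0.47), FNIP2 in BXPC3 without vehicle replicate 2 (-0.60), lonidamine replicate 3 (-0.63) or SR4 replicate 2 (-0.60), and RRAGD in PANC1 without vehicle replicate 1 (-0.33), lonidamine replicate 1 (-0.35) or SR4 replicate 3 (-0.33).

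**Figure D4:**
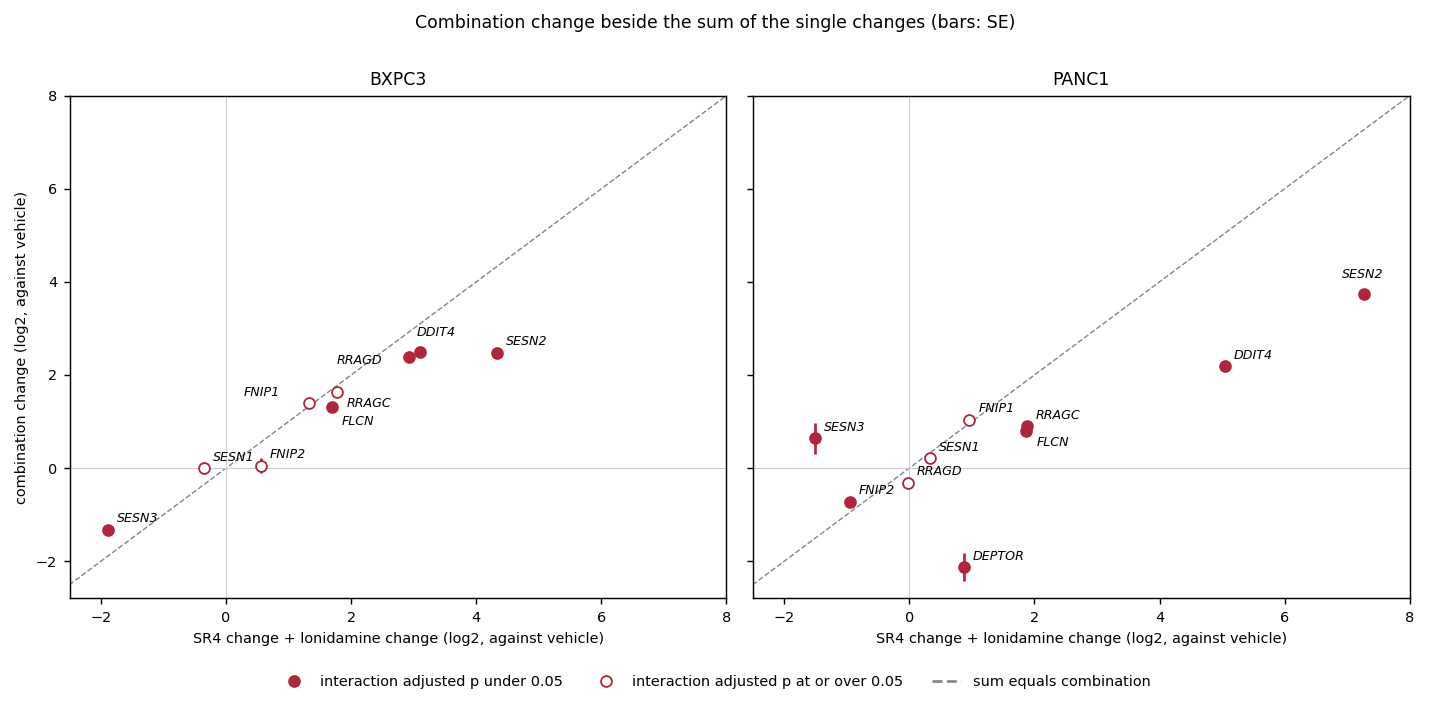
Log2 change of the combination against vehicle (vertical axis, bars for SE) beside the sum of the log2 changes of SR4 and lonidamine (horizontal axis) for each tested gene. Filled points have an interaction with an adjusted p under 0.05. SESN2 lies below the dashed line of equality in both lines, at 2.48 for a sum of 4.33 in BXPC3 and at 3.74 for a sum of 7.27 in PANC1, and FNIP1 lies close to it.

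Between the compounds alone, whose doses differ, SR4 was above lonidamine for 4 and below it for 2 of 9 members in BXPC3 (23.0% and 23.7% of all genes, 46.7% called) and above it for 5 and below it for 5 of 10 in PANC1 (33.4% and 32.9%, 66.2% called). DDIT4 was higher with SR4 in both lines, by 0.51 ± 0.0366 and 0.44 ± 0.0446 (log2, SE), and FLCN by 0.31 ± 0.0788 and 0.39 ± 0.0601. RRAGC was higher with SR4 in BXPC3 (0.47 ± 0.0514) and lower with SR4 in PANC1 (-0.36 ± 0.045). SESN2 was lower with SR4 in PANC1 (-0.53 ± 0.0409) and its difference in BXPC3 of -0.097 ± 0.0573 did not pass. Among the smaller calls, SESN1 in BXPC3 (-0.35) was lost without lonidamine replicate 1 (-0.27), SR4 replicate 1 (-0.32) or SR4 replicate 2 (-0.26), and SESN3 in BXPC3 (-0.39) was -0.26 without SR4 replicate 1. In PANC1, SESN3 (1.12) was lost without lonidamine replicate 2 (0.81) or 3 (0.85) or SR4 replicate 1 (0.78) and was 1.91 without lonidamine replicate 1. DEPTOR (0.50) was lost without lonidamine replicate 2 (0.28) or SR4 replicate 1 (0.50) or 2 (0.44). Of these, SESN1 in BXPC3 and SESN3 and DEPTOR in PANC1 were not called by the DESeq2 test either. SESN1 in BXPC3 and DEPTOR in PANC1 were also lost with scaling by library totals, and SESN1 with only the groups compared. FNIP1 in PANC1 (0.19) did not pass when counts were scaled by library totals (0.10, adjusted p = 0.0821).

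The lines already differed with vehicle. In the joint fit, 7 members were higher and 3 lower in PANC1 than in BXPC3, where 41.3% of all genes were higher, 43.0% lower and 84.3% called. SESN3 was 26.3-fold lower in PANC1 (-4.72 ± 0.181 log2, SE), and DDIT4 (-1.14 ± 0.0564) and SESN2 (-0.67 ± 0.0942) were lower too. FNIP2 was 6.95-fold higher (2.80 ± 0.104), and RRAGD 4.29-fold (2.10 ± 0.123). DEPTOR counts here as higher in PANC1 (2.08 ± 0.305), but it was under the low-count filter in BXPC3 and entered the joint fit only through PANC1, where it is high, so this call and its response differences support nothing. The response to SR4 was more positive in PANC1 for 4 members, DEPTOR among them, and more negative for 4 (26.2% and 24.9% of all genes, 51.2% called). The response to lonidamine was more positive for 4 and more negative for 2 (23.5% and 18.2%, 41.8% called), and that to the combination for 2 and 6 (31.7% and 30.2%, 61.9% called). RRAGD showed the widest gap, with a combination response -2.75 ± 0.157 log2 lower in PANC1 (SE; adjusted p = 3.46e-18 by edgeR's quasi-likelihood test). The response of SESN2 was larger in PANC1 with SR4 (1.25 ± 0.107), lonidamine (1.72 ± 0.105) and the combination (1.22 ± 0.106). DDIT4 responded more in PANC1 to SR4 (0.93 ± 0.0713) and lonidamine (1.04 ± 0.072) and less to the combination (-0.35 ± 0.0719). The responses to lonidamine of SESN3 (-0.53) and DEPTOR (1.14) did not pass with all libraries, and did so without PANC1 lonidamine replicate 1 (-1.32) and PANC1 lonidamine replicate 2 (1.33), respectively.

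The rest of the pathway was read through lists of other genes, from which the members were left out. These lists, like the members, were chosen with earlier results of these data known. Beside the counts below, with the combination 39.7% of all tested genes rose and 39.5% fell in BXPC3, and 40.1% rose and 40.9% fell in PANC1. The mTORC1 core and TSC-RHEB list had 4 rises and 5 falls among 9 tested genes with the combination in BXPC3 and 5 rises and 3 falls in PANC1, with median log2 changes of -0.41 and 0.27. MTOR, the kinase itself, rose by 0.25 and 1.20 log2 with the combination in BXPC3 and PANC1, and TTI1, part of a complex that helps assemble it, fell by 0.90 and 0.64. Of 11 Rag, Ragulator and amino acid sensing genes, 5 rose and 3 fell in BXPC3 and 6 rose and 4 fell in PANC1 (medians 0.047 and 0.29). SLC38A9, a lysosomal arginine sensor, rose by 0.45 and 1.33, and CASTOR2, related to a cytosolic arginine sensor, fell by 1.17 ± 0.439 and 2.61 ± 0.241 (SE). CASTOR2 was scarce, going in BXPC3 from 1.76 ± 0.194 to 0.779 ± 0.487 CPM (SD, n = 3). Of 12 genes for GATOR1, GATOR2 and KICSTOR, the complexes through which Sestrins act, 6 rose and 3 fell in BXPC3 and 9 rose and 1 fell in PANC1 (medians 0.087 and 0.69). NPRL2, a subunit of the Rag inhibitor GATOR1, rose by 0.50 and 2.55, and SEC13 of GATOR2 rose by 0.86 and 1.24. Most of these counts were thus near the shares over all genes. The medians over all tested genes in the combination were -0.00090 in BXPC3 and -0.0199 in PANC1.

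Upstream and downstream genes were counted in the same way for the combination, where 79.2% of all genes were called in BXPC3 and 81.1% in PANC1, about equally in each direction. Of the mTORC2 and upstream kinase list, 5 rose and 5 fell of 13 in BXPC3 and 6 rose and 6 fell of 12 in PANC1 (medians -0.12 and -0.26). IRS2, an adaptor of the insulin receptor, rose by 2.02 and 2.57, and AKT1, a kinase upstream of mTORC1, fell by 0.74 and 1.65. Of 13 mTORC1 substrates and readers, 10 rose and 3 fell in each line (medians 0.71 and 0.59). ULK1, the autophagy kinase that mTORC1 inhibits, rose by 2.81 and 2.76, and GRB10, an adaptor stabilised by mTORC1, by 2.30 and 0.62. Of 25 MiT factors and lysosomal targets, 14 rose and 7 fell in BXPC3 and 11 rose and 10 fell in PANC1 (medians 0.44 and 0.085), with the autophagy receptor SQSTM1 up by 2.32 and 2.04 and WIPI1 up by 3.68 and 2.0. Of 7 tested AMPK subunit genes, 4 rose and 1 fell in BXPC3 and 5 rose and 1 fell in PANC1 (medians 0.38 and 0.70), PRKAB2 by 1.71 and 2.73 and PRKAG1 by 0.39 and 1.26.

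Further lists held targets of stress-responsive transcription factors. Of 14 ATF4 and CHOP response genes, 13 rose and 1 fell in each of the 6 comparisons with vehicle, in which between 33.4% and 40.1% of all genes rose. The exception was ATF5, and their median change with the combination was 2.85 in BXPC3 and 3.34 in PANC1. TRIB3 rose by 5.09 and 4.66 and ATF3 by 4.02 and 6.28. Of 15 FOXO factors and targets, 13 rose and 1 fell with the combination in BXPC3 (39.7% and 39.5% of all genes). In PANC1 10 rose and 3 fell (40.1% and 40.9% of all genes), with BXPC3 and PANC1 medians of 1.14 and 1.33. TXNIP rose by 1.79 and 1.36, and IRS2, which the list shares with the upstream kinases, by the values above. SESN3, a known FOXO target outside the list, fell in BXPC3. FOXO activity was not measured, and its part in these changes was not tested. In PANC1, TXNIP was scarce, at 1.68 ± 0.12 CPM with vehicle and 4.31 ± 0.558 with the combination (SD, n = 3 each). It changed there by -0.77 ± 0.349 log2 with SR4 (adjusted p = 0.0495 by edgeR) and 1.87 ± 0.236 with lonidamine (SE). Of the hypoxia targets, also with the combination and beside the same shares, 9 of 10 rose and 1 fell in BXPC3. In PANC1 7 of 11 rose and 3 fell (medians 1.32 and 0.64). LOX rose by 3.25 and 3.39, in PANC1 from 0.912 ± 0.143 to 9.72 ± 0.607 CPM (SD, n = 3 each). NDRG1 rose by 4.76 in BXPC3 and fell by 0.29 in PANC1, where it rose by 1.90 with SR4 and 0.70 with lonidamine. Of the hypoxia list with SR4, 5 rose and 3 fell in BXPC3 (33.4% and 33.9% of all genes, median -0.0052). In PANC1 10 rose and 0 fell with SR4 (35.0% and 36.7%, median 1.17). With lonidamine 5 rose and 2 fell in BXPC3 (34.8% and 32.7%, median 0.27), and 7 rose and 0 fell in PANC1 (35.0% and 34.2%, median 0.30).

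**Figure D5:**
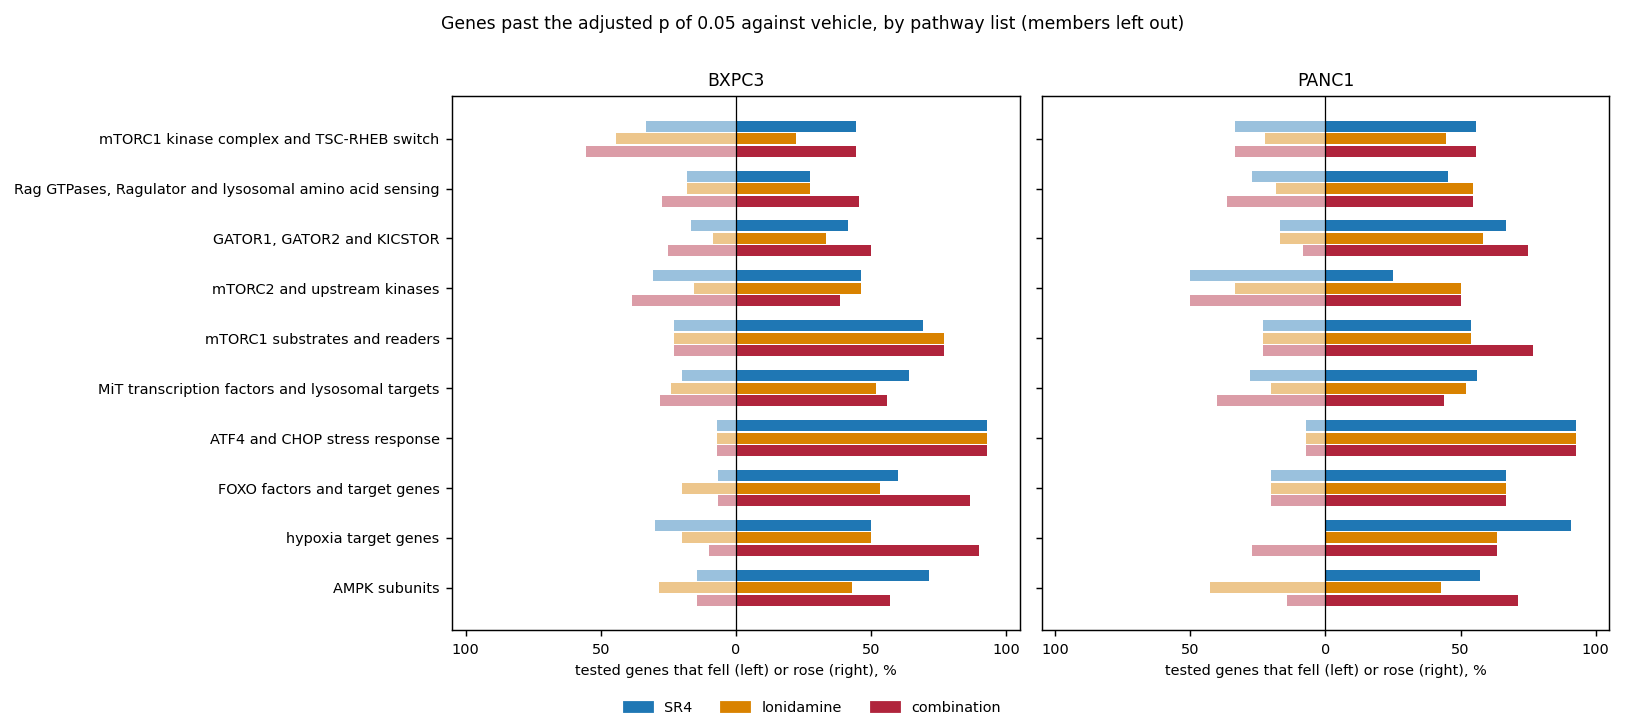
Share of the tested genes of each list that rose (right, solid) or fell (left, pale) against vehicle at an adjusted p under 0.05, for SR4, lonidamine and the combination in BXPC3 and PANC1. The ATF4 and CHOP list shows the longest bars to the right in BXPC3, with 13 of its 14 genes rising under each treatment in both lines.

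Across the 24 libraries, after each line's mean was subtracted, some members ran close to each other. Pearson's r of log2 CPM was 0.958 between DDIT4 and FLCN, 0.931 between DDIT4 and SESN2 and 0.917 between DDIT4 and RRAGC, a description over libraries that share treatments and scaling. Among 9716 genes the pattern most like SESN2 was that of GARS (r = 0.991), a tRNA ligase for glycine, then CHAC1 (0.989), which degrades glutathione, and MOCOS (0.987). For DDIT4 it was LRRC75A-AS1 (0.982) and CEBPB (0.981). RRAGC was most like JOSD1 (0.983), P2RX4 (0.974) and OPTN (0.970), FLCN like SMOX (0.974), CUL7 (0.961) and DDIT4, and FNIP1 like SEC31A (0.987), ARFGAP3 (0.978) and CHFR (0.975). RRAGD was most like DHRS7 (0.967), AGAP1 (0.963) and MICAL2 (0.960). The closest genes for SESN1 (SNX13, UHMK1 and M6PR, up to 0.879), FNIP2 (ZDHHC23, CEBPZOS and KIAA0930, up to 0.866), SESN3 (DHX29, ATAD3A and IMMT, up to 0.872) and DEPTOR (CALM2, IRF2 and RASSF3, up to 0.868) were less alike, and SESN3 and DEPTOR were themselves below that level minimum.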

How the data were processed

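Gene counts were used as deposited by the authors, in 1 table per line with 12 libraries each. The tools STAR 2.7.8a, DESeq2 and Partek and the build GRCh38 (hg38) appear, without roles, per the submitters' processing notes. For the counting, tool, annotation release and strand were not given in the sources used here. The third SR4 column of BXPC3 carries another number than its sample title and was kept as an unnumbered replicate. All 173 member results were computed in R 4.3.3. TMM scaling used edgeR 4.0.16, genes were kept by filterByExpr (minimum count 10; 12920 in BXPC3, 12514 in PANC1, 13930 in the joint fit), and 4 groups per line or 8 groups jointly were tested by the quasi-likelihood test with Benjamini-Hochberg adjustment over all genes, called at an adjusted p of 0.05. SE is the log2 change over the square root of F. CPM used TMM library sizes, and TPM the deposited gene lengths.

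Members and lists were chosen with earlier results of these data known. Named beside the members were the 2 genes per list with the smallest adjusted p in the combination and the 3 genes most like each member among genes whose log2 CPM averaged 2 or more in both lines. Of these, 1 gene and 1 list are not reported here. ATF5, MPRIP, PLD6, RAPGEF6 and GJA9-MYCBP were named after their values were seen. Alternatives were DESeq2 size factors, library totals, the DESeq2 1.42.0 test, no low-count filter, only the groups compared, the replicate number as a block and leaving out each library. On simulated data with changes planted in 100 genes per size, 89% of changes of 0.5 log2 and 97% of 1 log2 were recovered for SR4 in BXPC3 (12770 genes), 87% and 97% in PANC1 (12380 genes) and 65% and 80% for the difference between lines (13737 genes). False calls were 7 of 193, 10 of 194 and 5 of 150 calls in that order. Scarce genes were not planted, all genes had the same dispersion and few genes changed. The recovery therefore does not extend to scarce members or to a response of most genes.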

Additional observations from a re-analysis of the deposited data

Results flagged for a closer look

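Between PANC1 and BXPC3, 22 responses of the regulators differed by the test of the difference itself (edgeR's quasi-likelihood test, adjusted p under 0.05). They include that of DEPTOR to SR4, from which nothing is drawn, and are given here as log2 response in PANC1 minus that in BXPC3. With SR4 the differences were 1.25 for SESN2, 0.94 for SESN3, 0.93 for DDIT4, 1.78 for DEPTOR, -0.37 for RRAGC, -1.83 for RRAGD, -0.24 for FNIP1 and -1.03 for FNIP2. With lonidamine they were 0.60 for SESN1, 1.72 for SESN2, 1.04 for DDIT4, 0.50 for RRAGC, -1.09 for RRAGD and -0.46 for FNIP2. With the combination they were 1.22 for SESN2, 1.92 for SESN3, -0.35 for DDIT4, -0.78 for RRAGC, -2.75 for RRAGD, -0.56 for FLCN, -0.39 for FNIP1 and -0.81 for FNIP2.

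The value for DEPTOR rests on BXPC3 libraries with 1 to 12 counts, under the low-count filter of that line, and the gene was in the joint fit only through PANC1, where it is high, so nothing is drawn from it. Those for SESN3 rest on PANC1 libraries with 4 to 40 counts. The SESN3 difference with SR4 was lost without BXPC3 vehicle replicate 3 (0.88), BXPC3 SR4 replicate 1 (0.82), PANC1 vehicle replicate 2 (0.81) or 3 (0.86), or PANC1 SR4 replicate 1 (0.61). It was also lost with DESeq2 size factors (0.89) and with scaling by library totals (0.89). That of FNIP1 with SR4 was lost without BXPC3 vehicle replicate 1 (-0.19), PANC1 vehicle replicate 3 (-0.21) or PANC1 SR4 replicate 2 (-0.19). That of FNIP2 with lonidamine was lost without BXPC3 vehicle replicate 1 (-0.41) or BXPC3 lonidamine replicate 2 (-0.34).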

How the results depend on the processing

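Of 140 called results on the regulators, 121 kept their direction and their side of the threshold under every alternative run, 19 lost the call under at least 1, and 0 reversed. The number of members called in each of the 18 comparisons stayed within 1.5 times of its value under every alternative. The DESeq2 test lost 13 calls, and library totals lost 7 and added 5. No shared effect of the replicate number was seen: deviations of same-numbered libraries had a median correlation of -0.033 over 15 pairs in BXPC3 and -0.011 over 18 in PANC1, and 5 of 11 and 6 of 12 libraries correlated more with their own number than with the others. This cannot show that same-numbered libraries were prepared apart. With the replicate number as a block, 171 of 173 results kept their call, while SESN1 in the BXPC3 interaction (0.48, adjusted p = 0.0467) and SESN3 with the combination in PANC1 (0.63, adjusted p = 0.0405) newly passed. Depth limits DEPTOR in BXPC3 and SESN3 in PANC1, at 1 to 40 counts per library.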
